A study of Homo sapiens with 2 samples.

Results

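The AP-1 and BATF transcription factors were compared between L-428 cells with knock-down of PRAME and control cells. L-428 is an established Hodgkin lymphoma (HL) cell line that expresses the tumor antigen PRAME, a repressor of retinoic acid signaling, at a high level. The 10 genes were the Jun family (JUN, JUNB and JUND), the Fos family (FOS, FOSB, FOSL1 and FOSL2), BATF, BATF3 and MAF. Every probe set of the array that the platform annotation assigns to exactly 1 of these symbols was included, which gave 25 of 54675 probe sets. No probe set carried a member symbol together with another symbol.

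The knock-down cells were stably transfected with pcDNA6.2-GW/EmGFP-miR-PRAME, a vector that expresses an artificial microRNA against PRAME, and the control cells with pcDNA6.2-GW/EmGFP-miR-neg. Both kinds of cells thus carried an EmGFP vector and had been selected with blasticidin. Whether the transfectants were 1 clone or a mixed population is not given in the sources used here. RNA of each kind of cells was hybridized with 1 Affymetrix HG_U133PLUS2.0 array. The general description of the series names another HL cell line and another array type, and the sample labels and the number of probe sets were followed here.

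AP-1 factors are bZIP proteins. They bind DNA as dimers that are held together by a leucine zipper, and their usual target is the short palindrome TGANTCA. Jun proteins can pair with each other, whereas Fos proteins need a Jun partner. BATF and BATF3 consist of little more than the bZIP domain. They pair with Jun proteins and are known in lymphoid cells for binding together with IRF4 or IRF8. MAF is a larger bZIP factor with an extended binding site that is known from T cells and myeloma cells. In Hodgkin and Reed-Sternberg cells, JUN and JUNB are known to be abundant, and JUNB is known to activate the gene of CD30 (TNFRSF8). Liganded retinoic acid receptors are known to oppose AP-1 activity in several cell types.

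Binding motifs in the promoters of the members are shown because several AP-1 genes are known to be regulated by bZIP factors themselves. RefSeq promoter windows of GRCh38.p14 (250 bases before to 50 bases after the start of the gene) were matched for 8 of the 10 members, not for FOSL1 and BATF3. The letters TGACNTCA, a CRE-like site, were present in the windows of JUN, JUND and MAF and in 7.97% of all 27305 windows. The letters TGANTCA were present in the window of FOSL2 and in 7.76% of all windows. Both strands were searched, and no stretch of these windows matched both motifs. The capitals mark the motif, with 10 bases on each side, 5′ to 3′ on the strand of the gene. The JUN site lies at chr1:58784097-58784124 (minus strand, motif from base -67 of the gene start), the JUND site at chr19:18281805-18281832 (minus strand, from base -200), the MAF site at chr16:79600765-79600792 (minus strand, from base -45) and the FOSL2 site at chr2:28392852-28392878 (plus strand, from base 5 of the transcript).
JUN: ggccttggggTGACATCAtgggctattt
JUND: gccgcccccaTGACGTCAacccacaagg
MAF: catttggaccTGACGTCAcgagtgctat
FOSL2: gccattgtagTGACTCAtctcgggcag
None of the 8 windows held a CArG box, the site of serum response factor, which was present in 1.29% of all windows. A match of letters is a description and not a measured binding site.

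The values are MAS5 signal intensities, 1 per probe set and array, on a linear scale in arbitrary units. For PRAME itself, probe set 204086_at had 1251 in the knock-down cells and 2115 in the control cells, a log2 ratio of -0.80 after centering. All log2 ratios given here are knock-down over control, centered on the median of the 27307 probe sets whose mean signal reached the filter of 97.7. The trimmed mean signal was 500.1 on both arrays. As a sign of RNA quality, the GAPDH signal at the 3' end over that at the 5' end was 1.04 in the knock-down cells and 0.948 in the control cells, and for ACTB it was 1.17 and 1.14. Of 10 markers of Hodgkin and Reed-Sternberg cells, 9 were above the filter. The chemokine CCL22 was below it, with 15.2 in the knock-down cells and 9.05 in the control cells. Signals in knock-down and control cells were 1667 and 1893 for TNFRSF8 and 5537 and 6089.7 for the chemokine CCL17. Of the 9 markers above the filter, CD40 (-0.74) and FUT4 (-0.63) were at least 1.5-fold lower in the knock-down cells at the probe set of the highest signal. However, 1 of 4 measured probe sets of CD40 (0.66) and 1 of 2 of FUT4 (0.36) went the other way. None of 5 T cell, 3 NK cell and 4 myeloid markers was above the filter, whereas all 3 stromal markers were, with signals of 184 in the knock-down cells and 53.4 in the control cells for COL1A2, 790.3 and 1199 for COL1A1 (3 measured probe sets with log2 ratios from -0.76 to 0.92) and 202 and 194 for DCN. Of 3 epithelial markers, KRT8 was above it with 159 and 157. The part of these markers in the values of the AP-1 genes was not tested. Bulk arrays cannot tell fewer cells of a kind from less RNA per cell. With 1 array per condition no test was performed, and a threshold of 1.5-fold was used. The precision is limited by the number of arrays.

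The Jun and BATF genes gave clear signals in both kinds of cells, and the Fos genes and MAF did not. All 3 Jun genes, BATF and BATF3 had at least 1 probe set above the filter, together 10 of the 25 probe sets. All 8 Fos family and all 6 MAF probe sets were below it, as was 1 JUND probe set. No member probe set above the filter differed by 1.5-fold between knock-down and control cells. The log2 ratios lay between -0.51 and 0.23 (threshold 0.58). Of all kept probe sets, 8.21% were at least 1.5-fold higher and 6.2% at least 1.5-fold lower in the knock-down cells. Counted by gene, with each gene at its probe set of the highest signal, 0 of 5 members passed the threshold in either direction, against 7.54% of 11794 genes higher and 5.42% lower. The median log2 ratio of the 5 genes was 0.037, which is the value of JUN, and that of all 11794 genes was -0.0069. The sign of the member median depended on the processing. Among other processings that kept the filter, it lay between -0.20 (median over probe sets) and 0.096 (filter at the 75th percentile).

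**Figure D1:**
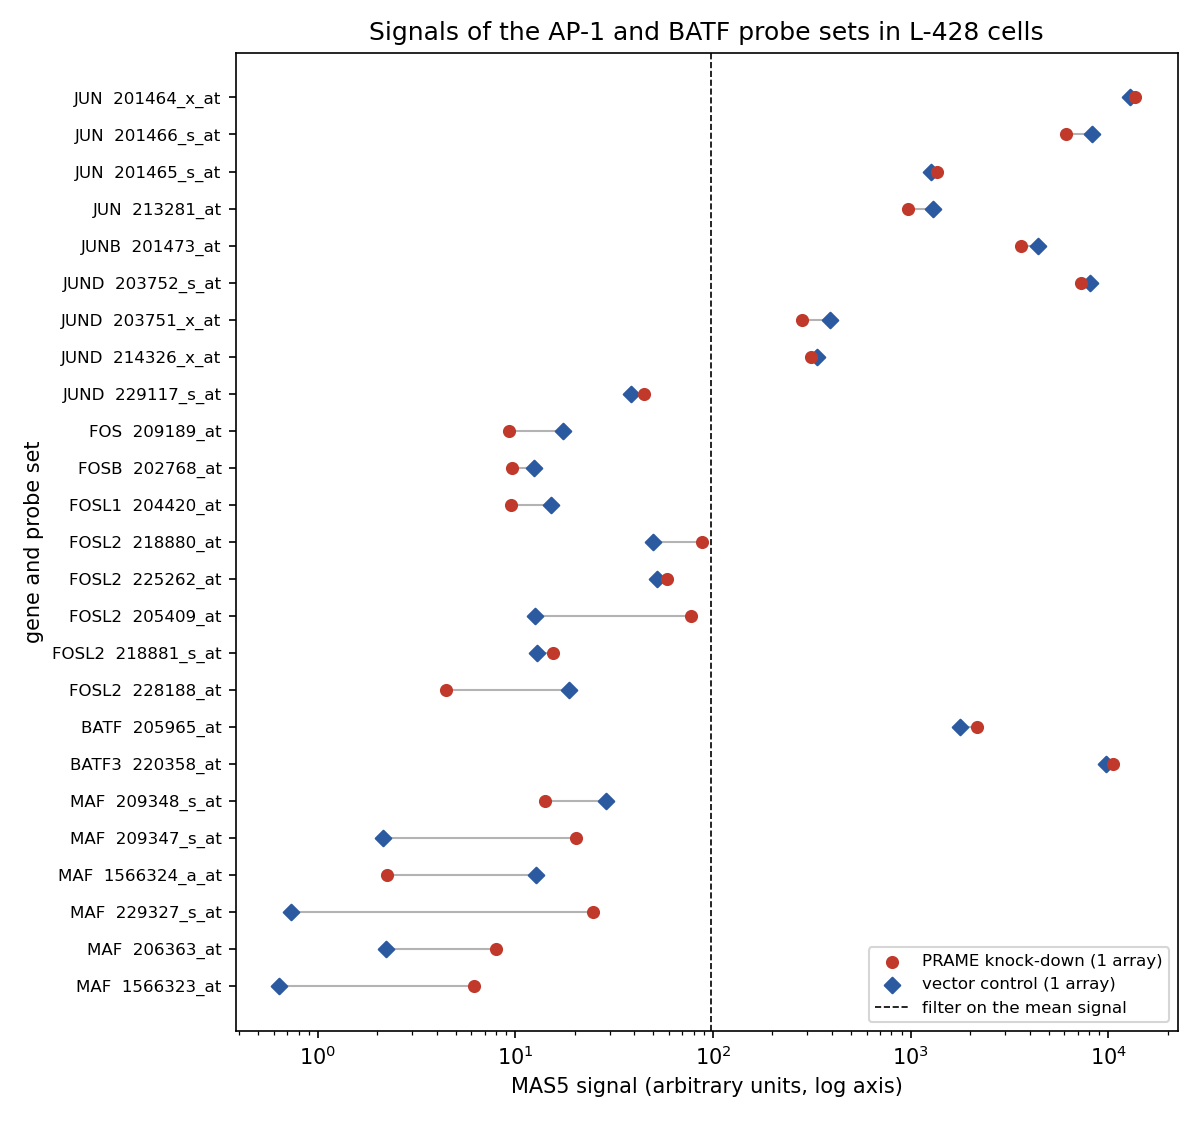
MAS5 signals (arbitrary units, log axis) of the 25 AP-1 and BATF probe sets, with 1 red point for the PRAME knock-down array and 1 blue diamond for the vector control array. The 10 probe sets right of the dashed filter line at 97.7 belong to JUN, JUNB, JUND, BATF and BATF3, and the widest gaps between both arrays lie at the far left, among MAF and FOSL2 probe sets with signals below 100.

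JUN encodes the founding member of the family and a strong transcriptional activator. Its 4 probe sets fell into pairs. The signal of JUN probe set 201464_x_at was 13625 in the knock-down cells and 12867 in the control cells (log2 ratio 0.037). The signal of 201465_s_at was 1369 and 1270.1 in knock-down and control cells (0.063). These 2 probe sets were thus nearly equal in both kinds of cells. The other JUN probe sets had lower signals in the knock-down cells. The signal of 201466_s_at was 6111 in the knock-down cells and 8310.0 in the control cells (-0.49), and that of 213281_at was 972 and 1306 (-0.47). The median over the 4 JUN probe sets was -0.22, with a range of 0.55. Of 681 other genes with 4 probe sets above the filter, 48.8% had a smaller range, so this disagreement was not unusual on these arrays. The part of the JUN transcript that each probe set covers was not analyzed here.

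Single JUN probe sets can be set against probe sets of similar signal. Of the 1000 probe sets nearest in mean signal to 201466_s_at, 3.5% had a lower log2 ratio, and the middle 95% of them lay between -0.53 and 0.44. For 213281_at, 11.4% were lower. This spread includes real differences between the cells and is not an error between replicate cultures.

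JUNB, which opposes JUN at some promoters and activates others, was measured by 1 probe set. The signal of JUNB probe set 201473_at was 3616 in the knock-down cells and 4417 in the control cells. This is a log2 ratio of -0.33, or 0.79 times the control level, and the difference was below the threshold. Of the nearest 1000 probe sets, 16.3% had a lower value. TNFRSF8, the CD30 gene, had a log2 ratio of -0.23, also below the threshold.

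JUND, the Jun factor that is usually present in resting cells, had 3 probe sets above the filter, all with lower signals in the knock-down cells. The signal of JUND probe set 203752_s_at was 7279 in the knock-down cells and 8099 in the control cells (-0.20). The signal of 203751_x_at was 282 and 389.6 in knock-down and control cells, which is a log2 ratio of -0.51 and the lowest of all measured member probe sets. The third, 214326_x_at, had signals of 313 and 335 (-0.14). The probe set below the filter, 229117_s_at, went the other way with 44.6 in the knock-down cells and 38.5 in the control cells. The 3 measured JUND probe sets spanned 0.37 on the log2 scale, and 40.3% of 1556 other genes with 3 such probe sets spanned less.

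Over the Jun family, 6 of 8 measured probe sets had a log2 ratio below 0 and 2 above 0, with a median of -0.27. Probe sets of 1 gene share its transcript and are not independent measurements.

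The BATF genes both had higher signals in the knock-down cells, by less than the threshold, and the log2 ratio of BATF3 was below 0 (-0.033) when centering used all probe sets without a filter. BATF, which competes with Fos for Jun partners and is needed for the class switch of B cells in mice, had a signal of 2171 for 205965_at in the knock-down cells and 1788 in the control cells. The log2 ratio of BATF was 0.23, the highest of all measured member probe sets, and 84.5% of the nearest 1000 probe sets had a lower one. BATF3, known in mice for the development of a subset of dendritic cells, had signals of 10526 for 220358_at in the knock-down cells and 9773 in the control cells. Its log2 ratio was 0.062, and 59.8% of the nearest probe sets were lower. Each of these genes was measured by 1 probe set, so that no second probe set can be set beside the value.

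**Figure D2:**
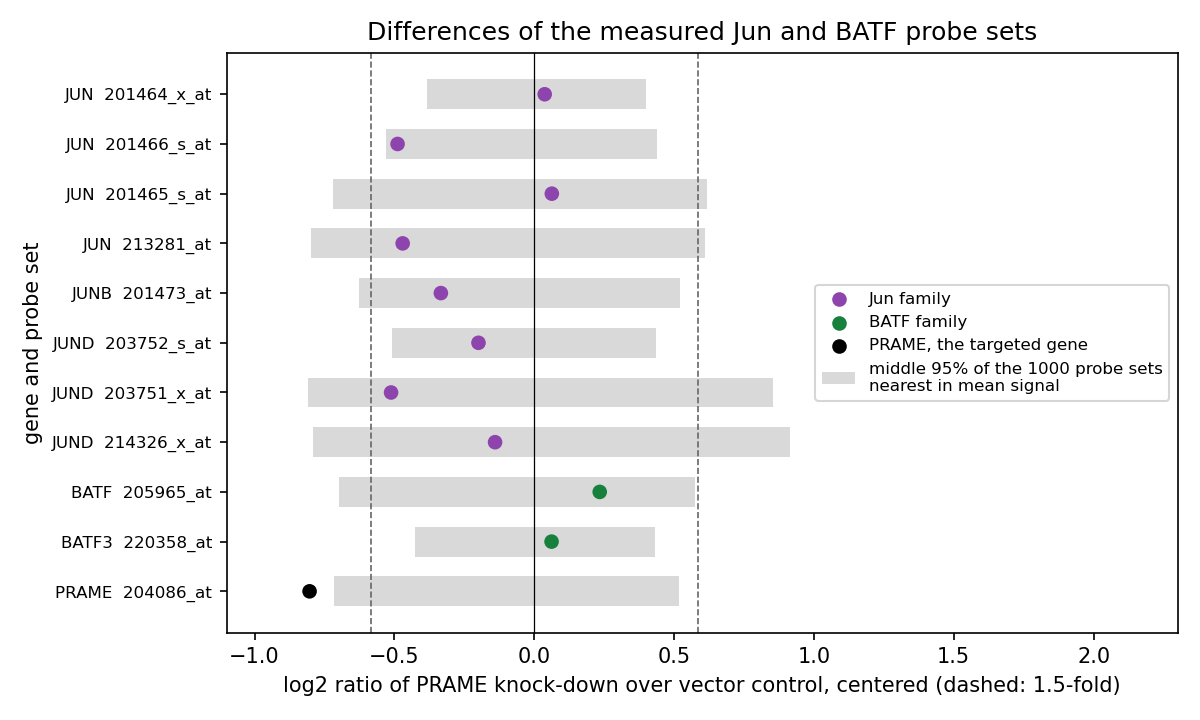
Log2 ratio (PRAME knock-down over control vector, centered) for the 10 AP-1 and BATF probe sets above the filter and for PRAME (points, 1 array per condition), with grey bars for the middle 95% of the 1000 probe sets nearest in mean signal and dashed lines at 1.5-fold. All 10 member points lie inside their bars and between the dashed lines, from -0.51 for a JUND probe set to 0.23 for BATF, whereas PRAME lies at -0.80 and outside its bar.

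The Fos genes, whose products supply the partner for Jun in the classical AP-1 dimer, were below the filter in both kinds of cells. FOS, an immediate early gene, had a signal of 9.26 for 209189_at in the knock-down cells and 17.4 in the control cells. FOSB, a related immediate early gene, had 9.67 and 12.4 for 202768_at. FOSL1, which encodes Fra-1, had 9.53 and 15.1 for 204420_at. These 3 genes had low signals, which were lower in the knock-down cells, but at such signals a ratio is not well determined. Of the 1000 probe sets nearest to FOS in signal, 69.3% differed by at least 1.5-fold in one or the other direction. With an offset of 64 added to both signals, the log2 ratios were -0.19 for FOS, -0.092 for FOSB and -0.15 for FOSL1.

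FOSL2, which encodes Fra-2, came nearest to the filter. Its 5 probe sets went in both directions. The signal of FOSL2 probe set 218880_at was 88.2 in the knock-down cells and 49.5 in the control cells, and that of 225262_at was 58.6 and 52.3. The signal of 205409_at was 77.7 in the knock-down cells and 12.6 in the control cells, that of 218881_s_at was 15.5 and 12.9, and that of 228188_at was 4.45 and 18.6. In 4 of 5 probe sets the signal was thus higher in the knock-down cells. With the offset, the log2 ratio was 0.85 for 205409_at, 0.38 for 218880_at, 0.036 for 225262_at, 0.0076 for 218881_s_at and -0.31 for 228188_at. For 205409_at, 96.2% of the 1000 probe sets nearest in signal had a lower log2 ratio without the offset.

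MAF is an example of large ratios between very low signals. The 6 MAF probe sets had signals from 2.23 to 24.6 in the knock-down cells and from 0.636 to 28.8 in the control cells, and 4 of them were higher in the knock-down cells. The signal of MAF probe set 229327_s_at was 24.6 in the knock-down cells and 0.736 in the control cells, formally a ratio of 32.4 after centering, and no probe set among the nearest 1000 had a higher log2 ratio. The offset brought the log2 ratio of this probe set to 0.41. The signal of 209348_s_at, the highest MAF signal in the control cells, was 14.1 in the knock-down cells and 28.8 in the control cells, with a log2 ratio of -0.29 with the offset. Of 6 genes listed as MAF targets, 5 were also below the filter, namely ITGB7, CCR1, IL10, IL4 and IL21. CCND2, the cyclin D2 gene, had signals of 12765 in the knock-down cells and 12102 in the control cells for 200953_s_at (0.032), whereas its 4 measured probe sets had log2 ratios down to -0.70, with a median of -0.16.

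The other genes of the AP-1 pathway were described by 9 lists of partners, upstream kinases, regulators and targets with 86 genes, of which 62 were measured above the filter. Of these 62 genes, 4 were at least 1.5-fold higher and 5 at least 1.5-fold lower in the knock-down cells, or 6.45% and 8.06%, near the shares of 7.54% and 5.42% over all genes. The median log2 ratio of the 62 genes was -0.067.

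Among the partners of Jun, JDP2, a bZIP protein known to repress AP-1, was 1.94-fold higher. Its signal was 626 for 226267_at in the knock-down cells and 313 in the control cells (log2 ratio 0.95), whereas a second JDP2 probe set below the filter was nearly equal with 87.9 and 84.3. The 4 other measured partners did not reach 1.5-fold at their probe sets with the highest signal. ATF4, the factor of the amino acid response, had a log2 ratio of 0.28, ATF7 of -0.26, ATF2 of 0.056 and the stress-induced ATF3 of 0.022. BATF2 was below the filter.

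In the list of further Maf, CNC and BACH factors, 3 of 8 measured genes were at least 1.5-fold lower and none was higher. Over all genes, 5.42% were lower and 7.54% higher, and with so few genes the list was not tested against these shares. BACH2, a transcriptional repressor in B cells that binds as a dimer with small Maf proteins, was lower in both probe sets. Its signal was 689 for 221234_s_at in the knock-down cells and 1337 in the control cells (-1.001), and 235 and 419 for 227173_s_at (-0.88). The related repressor BACH1 had 597 and 1046 for 204194_at in knock-down and control cells (-0.85). The small Maf protein gene MAFF had 405 and 599 for 36711_at (-0.61), just past the threshold. MAFF did not pass it in 5 of 8 alternative processings. MAFG and NFE2L2 did not pass at their probe sets with the highest signal (-0.091 and -0.11), but each did at a second probe set (-0.99 and -0.61). The median of this list was -0.28.

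The factors that share composite sites with AP-1 or BATF did not reach 1.5-fold at their probe sets with the highest signal. IRF4, the partner of BATF in lymphoid cells, had 5703 for 204562_at in the knock-down cells and 4633 in the control cells (0.25), and its second measured probe set 216986_s_at had 826 and 565 (0.50). IRF8 was nearly equal (-0.019). NFATC1 had -0.42 at 210162_s_at, the only 1 of its 5 probe sets above the filter. Its signals there were near the filter, with 88.1 in the knock-down cells and 114 in the control cells. The offset gave -0.27, whereas NFATC1 passed the threshold after loess (-0.65) and after quantile normalization (-0.64). ETS1 (-0.39) and NFATC2 (-0.37) had log2 ratios below 0 in each probe set above the filter. Of the 3 ETS1 probe sets, 1 was past the threshold, namely 1555355_a_at (-0.60). NFATC3 had -0.21 at its probe set of the highest signal, but 3 of its 6 measured probe sets were above 0, with a median of 0.087 and a highest value of 0.73.

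Of 14 measured genes of the MAP kinase cascades, 11 had a log2 ratio below 0 (10 without centering and 12 after quantile normalization or loess). The median was -0.20, and -0.14 after loess, against -0.0069 over all 11794 genes. The median over all kept probe sets was -0.077 at signals from 787 to 1362, -0.088 from 1362 to 2800 and -0.028 above 2800. At signals from 198 to 306 it was 0.056. The kinase genes were spread over low and high signals, and the part of this dependence in their values was not tested. MAP3K5, which encodes the stress kinase ASK1, was 2.16-fold lower for 203837_at, with a signal of 2945 in the knock-down cells and 6176 in the control cells, and its other probe set 203836_s_at had a log2 ratio of -0.36. MAP2K2, which encodes the ERK kinase MEK2, had 2444 and 4291 for 202424_at in knock-down and control cells (-0.86) and a log2 ratio of -0.30 for 213490_s_at. MAP3K1 had -0.25 at its strongest probe set and -1.14 at a second probe set. The genes of the Jun kinases JNK1 and JNK2 remained below 1.5-fold at their probe sets with the highest signal. MAPK8 was lower in all 5 measured probe sets, with log2 ratios from -0.49 to -0.26, and MAPK9 in all 3, from -0.83 to -0.065, the last of which was 0.0089 after quantile normalization. A p-value cannot be given for these differences, since there was no replicate.

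Of the factors that bind the FOS promoter, none of 7 measured genes reached 1.5-fold at its probe set of the highest signal. The largest log2 ratios were 0.45 for ELK1, -0.38 for SRF, 0.31 for ELK4 and -0.30 for MRTFB, and ELK4 was higher in all 5 measured probe sets, of which 238761_at was past the threshold (0.60). Of 4 ubiquitin ligase subunits that act on JUN, DET1 was 1.69-fold higher, with 183 for 219641_at in the knock-down cells and 105 in the control cells. These signals were low, and with the offset the log2 ratio was 0.51. A second DET1 probe set below the filter, 1558348_at, had 85.5 and 71.1 in knock-down and control cells (0.22). FBXW7 (-0.25), ITCH (-0.093) and COP1 (-0.073) were below the threshold.

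Among 13 measured AP-1 target genes, 2 were at least 1.5-fold higher and none lower, against 7.54% and 5.42% of all genes. SPP1, which encodes the secreted protein osteopontin, had a signal of 345 for 209875_s_at in the knock-down cells and 123 in the control cells (log2 ratio 1.44). HMOX1, the heme oxygenase gene that BACH1 is known to repress, had 217 and 104 for 203665_at in knock-down and control cells (1.01). Both genes were measured at low signals, and with the offset the log2 ratios were 1.09 and 0.70. The 11 other measured target genes had log2 ratios between -0.23 for TNFRSF8 and 0.17 for VIM, the vimentin gene. LGALS1, the galectin-1 gene, had 11379 for 201105_at in the knock-down cells and 9849.5 in the control cells (0.16). MMP1, MMP3, CXCL8, CCL2, GJA1 and IL2 were below the filter.

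The 4 chains of the receptors for interleukin 2 and interleukin 15, cytokines of lymphoid cells, had log2 ratios above 0 but below 1.5-fold, except that IL2RA was at -0.0013 after quantile normalization and at -0.0020 after loess. The log2 ratios were 0.37 for IL15RA, 0.36 for IL2RG, 0.19 for IL2RA and 0.19 for IL2RB. The signal of IL2RG was 4669 for 204116_at in the knock-down cells and 3526 in the control cells.

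**Figure D3:**
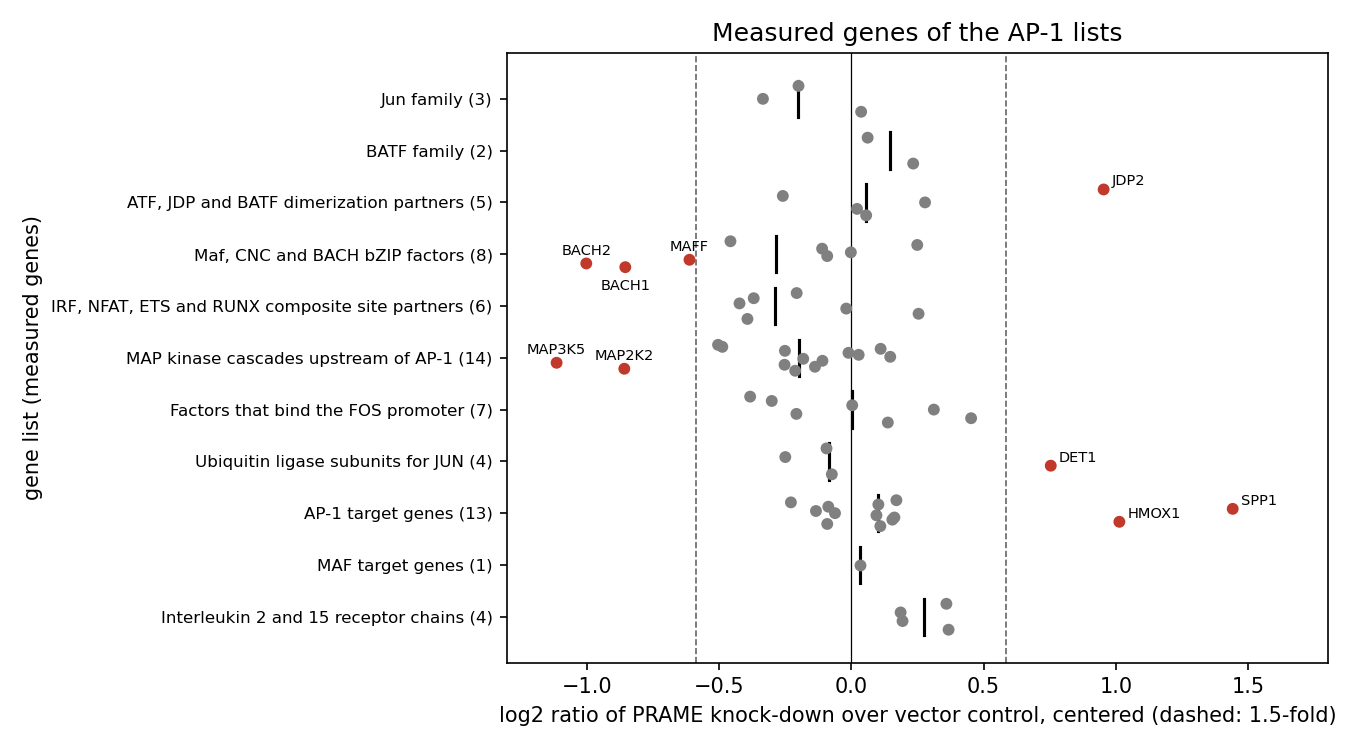
Log2 ratio (PRAME knock-down over control vector, centered) for each measured gene (points, 1 array per condition) of the Jun and BATF families and of 9 lists of partners, kinases, regulators and targets, with black bars for list medians, numbers of measured genes in brackets and dashed lines at 1.5-fold. The Jun and BATF points lie inside the dashed lines, and the 9 red points outside them range from -1.11 for MAP3K5 to 1.44 for SPP1.

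The values of the 5 measured members depended little on the processing, except for JUN. Over 8 alternative processings the log2 ratio of JUNB stayed between -0.43 and -0.26, that of JUND between -0.29 and -0.14 and that of BATF between 0.14 and 0.32. BATF3 lay between -0.033 and 0.12. JUN lay between -0.49 and 0.096, and its sign changed with the scaling and with the choice of the probe set. No setting that kept the filter brought a member gene past 1.5-fold.

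**Figure D4:**
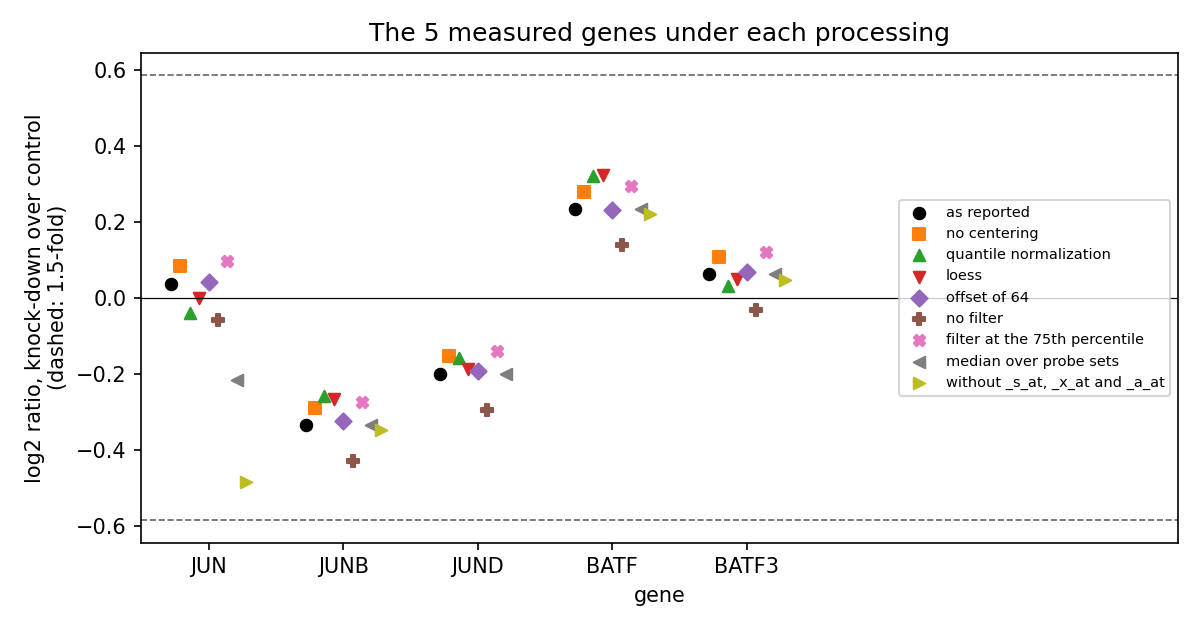
Log2 ratio (PRAME knock-down over control vector, centered) for JUN, JUNB, JUND, BATF and BATF3 as reported (black) and under 8 alternative processings (other symbols), with dashed lines at 1.5-fold. JUNB and JUND stay below 0 and BATF above 0 under every setting drawn, JUN and BATF3 lie on both sides of 0, and JUND has no point without the _s_at, _x_at and _a_at probe sets.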

How the data were processed

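One HG_U133PLUS2.0 array per condition was hybridized with RNA of knock-down or control cells. The authors deposited MAS5 signal intensities in linear form, made with Affymetrix Expression Console 1.1 and scaled to one level per array. MAS5 corrects for background and summarizes each probe set into 1 value, and ratios of low signals are therefore unstable. Detection calls were not analyzed here.

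After 62 control probe sets had been left out, signals were transformed to log2, and 27307 probe sets passed a filter at the median of the mean log2 signals. The median log2 ratio of these (0.045) was subtracted from all ratios. Of all probe sets, 41097 carried 1 symbol, 1801 several and 11777 none. Only the first kind was used for genes, and 41043 of these matched a RefSeq gene of GRCh38.p14, from which current names were taken. The annotation names no build. Each gene stands for its kept probe set of highest mean signal. All member genes were named and, of the other lists, the genes past 1.5-fold or the 4 with the largest differences. TNFRSF8, LGALS1, VIM, CCND2, ELK4, NRL and the JNK genes were described further after their values were seen. Of 86 list genes, 9 had no probe set of their own in the annotation used and were not analyzed here. The members and lists were chosen with earlier results of these data known.

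Alternatives were no centering, quantile normalization, a loess curve of ratio against signal (span 0.4), an offset of 64, no filter, a stricter filter (75th percentile), the median over a gene's probe sets, and exclusion of probe sets ending in _s_at, _x_at or _a_at. The scripts were tested on simulated data and used Python 3.11.15 with numpy 2.4.6, statsmodels 0.14.6, pandas 2.3.3 and matplotlib 3.10.9.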

Additional observations from a re-analysis of the deposited data

How the results depend on the processing

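As reported, 0 member genes and 0 member probe sets were past 1.5-fold, and so it was under each alternative except that without a filter (with the median over probe sets, only genes were counted). Without a filter, all 25 member probe sets entered, of which 6 were at least 1.5-fold higher and 6 at least 1.5-fold lower. Counted by gene, 1 was higher and 3 were lower, and the median log2 ratio of the 10 genes was -0.36. Of all 19775 genes without a filter, 3480 were higher and 2331 lower. The share over all probe sets was not counted for this setting. Of the member calls, 1 had a signal above the filter, namely JUND 203751_x_at, whose log2 ratio was -0.61 when centering used all probe sets. The other probe sets past the threshold were below the filter. In the other pathway lists, 4 genes were higher and 5 lower as reported, against 11 and 11 without a filter. With a filter at the 75th percentile, where 42 genes were measured, 0 were higher. The number of lower genes was 6 after loess and 7 after quantile normalization. Under both, NFATC1 and the Maf factor gene NRL (-0.66 and -0.65) were past the threshold. Without the probe sets ending in _s_at, _x_at and _a_at, JUN was represented by 213281_at and its log2 ratio was -0.49, which reflects the choice of the probe set. MAFF was past the threshold in 3 of 8 alternatives, MAP2K2 in 7 of 8 and DET1 in 6 of 7. The median over probe sets gave MAP2K2 -0.58, and the offset gave DET1 0.51. Over all genes, 889 were higher and 639 lower by 1.5-fold as reported, 763 and 603 after loess, 1042 and 535 without centering, 254 and 273 with the filter at the 75th percentile, 476 and 463 with the offset, and 3480 and 2331 without a filter. The log2 ratio depended on the signal, with a median of 0.21 over probe sets with signals from 97.7 to 136 and of -0.028 over those above 2799.6. No paired analysis was possible because each condition has 1 array.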

Other observations

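The probe sets of ATF3, a stress-induced partner of Jun, disagreed. The signal of ATF3 probe set 202672_s_at was 11243 in the knock-down cells and 10732 in the control cells (log2 ratio 0.022), and that of 1554980_a_at was 3741 and 4276 (-0.24). The signal of 1554420_at was 501 in the knock-down cells and 1293 in the control cells (-1.41). Represented by its probe set with the highest signal, ATF3 counted as nearly equal. ATF7 was lower in 4 of 5 measured probe sets, with log2 ratios of -0.86 for 228829_at and -0.65 for 228830_s_at, although its probe set with the highest signal had only -0.26.

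CXCL8, the interleukin 8 gene, missed the filter narrowly. The signal of CXCL8 probe set 202859_x_at was 152 in the knock-down cells and 61.1 in the control cells, whereas 211506_s_at had 22.2 and 23.3.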
